A study of Mus musculus with 16 samples.

Results

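The genes described here encode the core of basement membranes, the thin sheets of matrix that lie under epithelia and around blood vessels, muscle and nerve. They are the laminin alpha chains Lama3, Lama4 and Lama5, the beta chains Lamb1 and Lamb2, the gamma chain Lamc1, the collagen IV chains Col4a1 and Col4a2, and nidogen 1, Nid1. All 9 were found by their symbol among the 18480 entries of each library. The set was chosen with earlier results of these data in view, and Lamc1 was selected on its FPKM in exercise against control, where its rise had been noted. Values of that comparison are therefore given as a description with no test.

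The 16 libraries come from subcutaneous grafts of MC38, a carcinoma line derived from mouse colon. The groups were exercise, anti-PD-L1 (an antibody against a ligand of the PD-1 checkpoint receptor), exercise combined with anti-PD-L1, called the combination here, and control, with 4 libraries each. The sources used here do not give the strain, age or sex of the mice, the form of the exercise or the antibody dose. Nor do they state whether each library stands for its own animal, so p-values here cover the spread between libraries, part of which may be technical. Each library holds RNA of the carcinoma cells together with that of the vessels, fibroblasts and other host cells of the tumour, so fewer cells of a type and less RNA per cell cannot be told apart.

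Laminins are trimers of an alpha, a beta and a gamma chain that assemble into a sheet at the cell surface, where integrins and dystroglycan hold them. Collagen IV, a trimer built mostly of alpha 1 and alpha 2 chains, forms a second, covalently linked network. Nidogen binds the laminin gamma 1 chain and collagen IV and thereby joins the networks, to which the heparan sulfate proteoglycan perlecan adds growth factor binding. In blood vessels the endothelium makes laminins with the alpha 4 and alpha 5 chains, and pericytes lie within the same membrane. The alpha 3 chain belongs to epithelial laminins, such as those under the epidermis.

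Col4a1 and Col4a2 stand head to head on chromosome 8. In the RefSeq annotation of GRCm38.p6, Col4a1 lies on the minus strand at 11198423 to 11312889 and Col4a2 on the plus strand at 11312805 to 11449287, so that their first bases overlap by 85 bases. The windows of 250 bases before and 50 bases after each start, taken from RefSeq for GRCm38.p6, are printed because the genes shared a pattern across libraries and share this stretch of genome. The start used for Col4a1 in these windows is 11312826, inside the annotated gene, and that for Col4a2 is 11312805. Both are written 5′ to 3′ on the strand of their own gene, and the capitals mark the 78 bases at chr8:11312777-11312854 that lie in both windows.
Col4a1, minus strand, chr8:11312777-11313076: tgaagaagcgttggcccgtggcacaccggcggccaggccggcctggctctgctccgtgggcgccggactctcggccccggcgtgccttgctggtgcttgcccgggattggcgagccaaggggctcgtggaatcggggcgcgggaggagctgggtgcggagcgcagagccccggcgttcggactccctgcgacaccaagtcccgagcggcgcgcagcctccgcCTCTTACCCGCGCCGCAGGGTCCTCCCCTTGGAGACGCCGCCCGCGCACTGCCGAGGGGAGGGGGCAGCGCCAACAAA
Col4a2, plus strand, chr8:11312555-11312854: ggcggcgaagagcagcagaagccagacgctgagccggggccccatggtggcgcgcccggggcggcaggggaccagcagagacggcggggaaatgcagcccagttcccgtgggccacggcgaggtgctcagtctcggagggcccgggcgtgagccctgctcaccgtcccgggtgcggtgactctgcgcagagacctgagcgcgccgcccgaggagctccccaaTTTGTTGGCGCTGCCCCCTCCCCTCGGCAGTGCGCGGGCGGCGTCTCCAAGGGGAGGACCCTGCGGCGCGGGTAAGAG
The capitals of one window are the reverse complement of those of the other. RefSeq windows were at hand for 6 of the 9 genes, Lama5, Col4a1, Col4a2, Lamb2, Lamb1 and Nid1.

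Those 6 windows were searched on both strands for TATAAA, the core letters of a TATA box, for the letters CCAAT of the CCAAT box and for GGGCGG, the letters of a GC box. No match overlapped another. TATAAA was found in 13.6% of all 32851 RefSeq windows of the same length and in 0 of the 6. CCAAT, held by 37.4% of all windows, occurred 1 time each in the windows of Col4a1, Col4a2, Lamb1 and Nid1. GGGCGG, held by 35.7% of all windows, occurred 4 times in the window of Lama5, 3 times in that of Col4a2, 2 times in that of Lamb1 and 1 time each in those of Col4a1 and Nid1. A single GGGCGG, at 11312812 to 11312817 of chromosome 8, lies in the capitals and is counted for both collagen genes. The window of Lamb2 held none of these letters and had a GC content of 44.0%, against 63.7% to 74.0% in the other 5 windows and a median of 52.7% over all windows. The matches describe the letters only.

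Levels are given in FPKM, the fragments of a gene divided by its transcript length and by the mapped fragments of its library, and can be compared between genes because they are per length. Over the 16 libraries Lamb1 had the highest mean, 93.5 FPKM, followed by Lamc1 at 64.7, Col4a1 at 50.2, Col4a2 at 44.5, Lamb2 at 22.5, Lama5 at 12.7, Nid1 at 7.68, Lama4 at 4.60 and Lama3 at 0.203 FPKM. Lamb1 headed the order in each group. Its libraries overlapped those of the next gene, Lamc1, in anti-PD-L1 tumours and not in exercise or combination tumours, and overlapped those of Col4a1, the next gene there, in control tumours. Lamc1, Col4a1 and Col4a2 were neighbours in the order in all 4 groups, and only in combination tumours did Lamc1 stand clear of the collagen genes. The summed alpha chains Lama3, Lama4 and Lama5 reached 11.1 to 27.1 FPKM across the libraries, against 93.1 to 144.7 FPKM for the summed beta chains, so beta chain RNA exceeded alpha chain RNA in every library. The spread was wide for Nid1, whose highest library was 12.3 times its lowest, and for Lama4 at 9.52 times, and narrow for Lamb2 at 1.58 times and Lamb1 at 1.74 times.

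**Figure D1:**
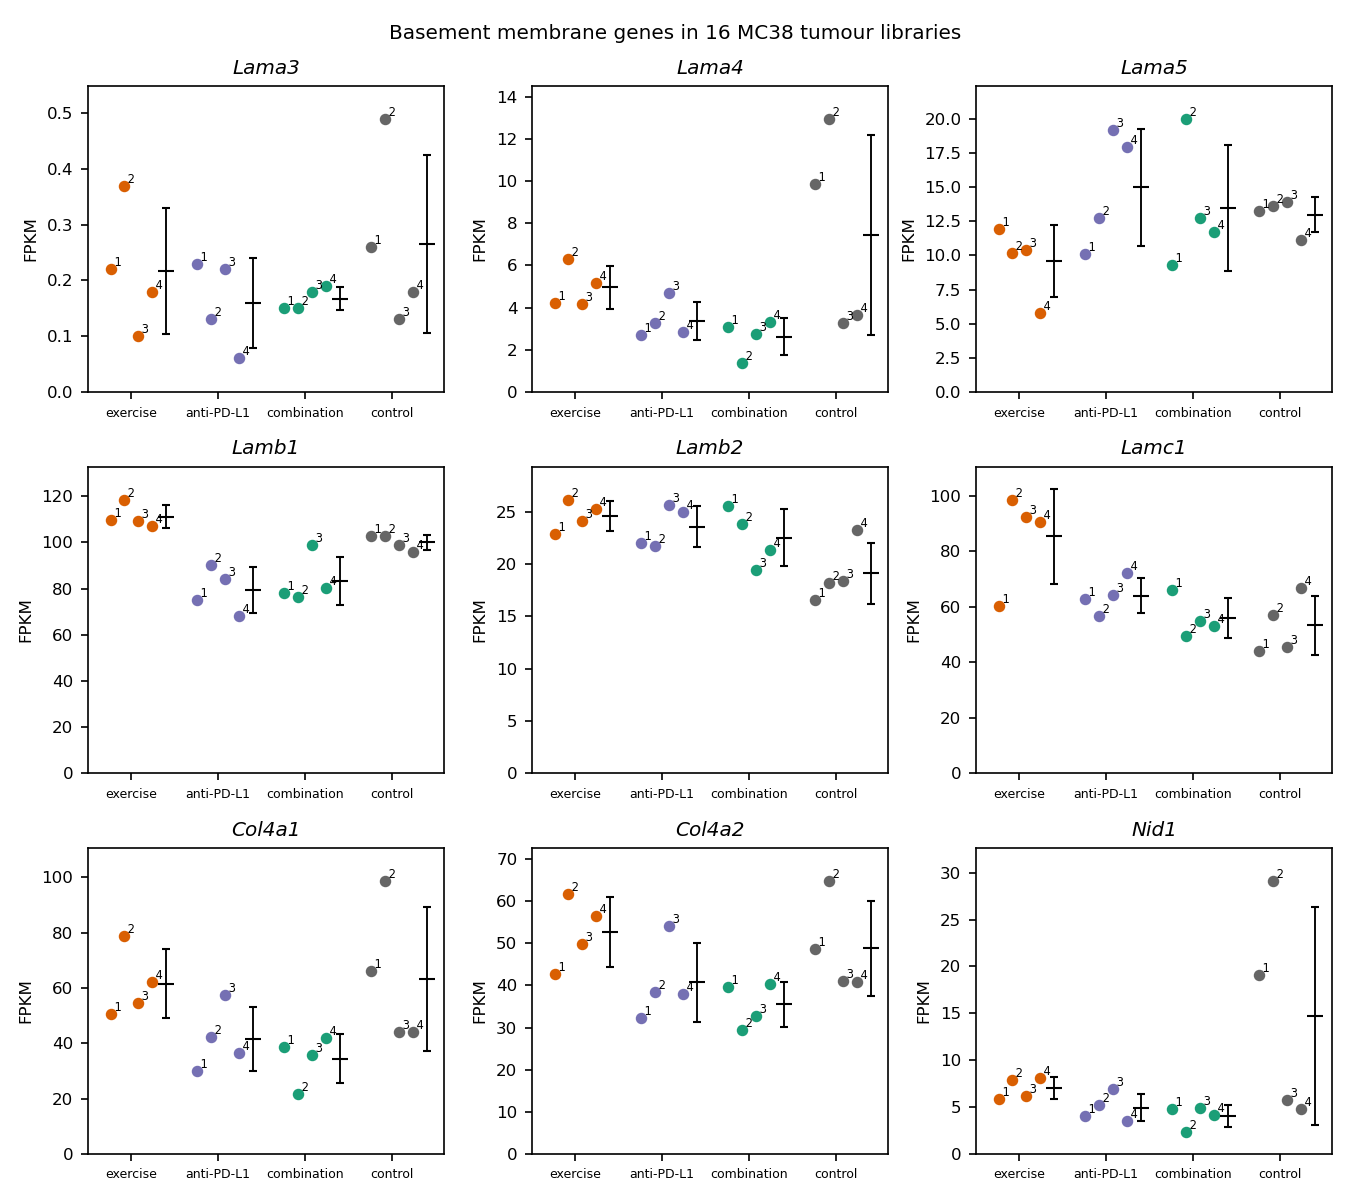
FPKM of the 9 genes in each library (numbered points), by group, with the mean and SD of the 4 libraries beside the points. Controls 1 and 2 stand above the other libraries for Lama4 and Nid1, and 3 of the 4 exercise libraries, between 90.6 and 98.7 FPKM, stand above all other libraries for Lamc1.

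Lama3 (chromosome 18, 12333417 to 12583013), the alpha chain of epithelial laminins, was near 0 throughout. Its values were 0.22, 0.37, 0.10 and 0.18 FPKM in exercise libraries 1 to 4, and 0.23, 0.13, 0.22 and 0.06 FPKM in anti-PD-L1 libraries. The combination libraries had 0.15, 0.15, 0.18 and 0.19 FPKM, and the control libraries 0.26, 0.49, 0.13 and 0.18 FPKM. No library reached 1 FPKM and the groups overlapped, so the gene was not part of the fit across genes. A two-sided exact permutation test on log2(FPKM + 1) gave p = 0.343 for anti-PD-L1 against control, 0.343 for the combination against control, 0.886 for the combination against anti-PD-L1 and 0.571 for the combination against exercise, where 0.0286 is the smallest p that 4 libraries against 4 allow. The labelled tumour type was also checked against 11 epithelial and keratinocyte markers, of which 10 were found and 4 passed the filter. Epcam, Krt8 and Krt18, which mark intestinal epithelium, stayed at or below 0.2 FPKM in every library. Krt19, another keratin of simple epithelia, reached 4.87 FPKM in a control and 1.16 FPKM in an anti-PD-L1 library, and Cdh1, epithelial cadherin, lay between 1.24 and 3.05 FPKM. Krt14, a keratin of basal epithelia, lay between 9.14 and 85.1 FPKM.

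Lama4 (chromosome 10, 38965515 to 39110188) encodes the alpha chain typical of vessel and mesenchymal membranes. It measured 4.21, 6.30, 4.15 and 5.15 FPKM in exercise libraries 1 to 4, and 2.70, 3.26, 4.69 and 2.84 FPKM in anti-PD-L1 libraries. In combination libraries it measured 3.08, 1.36, 2.74 and 3.32 FPKM, against 9.85, 12.95, 3.29 and 3.65 FPKM in control libraries. Controls 1 and 2 were the highest of all 16 and controls 3 and 4 lay among the treated libraries, so the control group overlapped each other group. All 4 exercise libraries lay above all 4 combination libraries.

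Lama5 (chromosome 2, 180176373 to 180225904), the broadly made alpha chain of epithelial and mature vessel membranes, followed another course. It measured 11.9, 10.2, 10.4 and 5.78 FPKM in exercise libraries, and 10.1, 12.8, 19.2 and 17.9 FPKM in anti-PD-L1 libraries. Combination libraries had 9.29, 20.01, 12.7 and 11.7 FPKM, and control libraries 13.3, 13.6, 13.9 and 11.1 FPKM. The highest single library was combination 2, which was at the same time the lowest for Lama4. Every pair of groups overlapped, and the controls lay closest together, with a mean of 12.98 ± 1.26 FPKM (SD, n = 4).

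Lamb1 (chromosome 12, 31265146 to 31329644), the beta chain found in most laminins of vessels and stroma, had little spread within a group. Exercise libraries measured 109.7, 118.5, 109.4 and 107.1 FPKM and anti-PD-L1 libraries 74.9, 90.3, 84.1 and 68.1 FPKM. Combination libraries measured 78.0, 76.4, 98.7 and 80.3 FPKM, and control libraries 102.6, 102.8, 98.8 and 95.9 FPKM. All 4 anti-PD-L1 libraries and all 4 combination libraries lay below all 4 exercise libraries. The anti-PD-L1 libraries also lay below all 4 controls, while combination 3 reached into the control range.

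Lamb2 (chromosome 9, 108479847 to 108490530) encodes the beta chain known from the neuromuscular junction and the kidney filter. It measured 22.9, 26.2, 24.1 and 25.3 FPKM in exercise libraries and 22.1, 21.7, 25.6 and 25.0 FPKM in anti-PD-L1 libraries. Combination libraries had 25.6, 23.8, 19.5 and 21.3 FPKM, and control libraries 16.6, 18.2, 18.3 and 23.3 FPKM. Controls 1, 2 and 3 were the lowest of the 16 libraries, and control 4 lay among the treated ones. Lamb1 made up 73.2% to 83.5% of the summed Lamb1 and Lamb2 levels in libraries given antibody and 80.5% to 86.1% in those without it.

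Lamc1 (chromosome 1, 153218922 to 153332786) encodes the gamma chain shared by nearly all laminins outside the epidermal type. Its values were 60.3, 98.7, 92.4 and 90.6 FPKM in exercise libraries 1 to 4, and 62.9, 56.7, 64.3 and 72.2 FPKM in anti-PD-L1 libraries. Combination libraries had 66.2, 49.5, 54.9 and 53.0 FPKM, against 44.2, 56.9, 45.4 and 66.8 FPKM in control libraries. Exercise libraries 2, 3 and 4 were the highest of the 16, while exercise 1 lay below control 4, combination 1 and anti-PD-L1 libraries 1, 3 and 4. The groups of exercise and control therefore overlapped. Per unit of Lamb1, Lamc1 stood at a median of 0.839 in exercise, 0.802 in anti-PD-L1, 0.654 in combination and 0.506 in control libraries.

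Col4a1 measured 50.5, 78.8, 54.5 and 62.3 FPKM in exercise libraries and 30.1, 42.3, 57.4 and 36.4 FPKM in anti-PD-L1 libraries. In combination libraries it measured 38.5, 21.8, 35.7 and 41.8 FPKM, against 66.3, 98.8, 43.9 and 44.1 FPKM in control libraries. All combination libraries lay below all control and all exercise libraries, although the gap to controls 3 and 4 was narrow.
Col4a2 measured 42.6, 61.7, 49.9 and 56.6 FPKM in exercise libraries and 32.4, 38.4, 54.2 and 37.9 FPKM in anti-PD-L1 libraries. Combination libraries had 39.7, 29.4, 32.7 and 40.3 FPKM, and control libraries 48.7, 64.9, 41.1 and 40.8 FPKM. The order of the libraries was close to that for Col4a1, with control 2 highest and combination 2 lowest for both. The ratio of Col4a1 to Col4a2 ranged from 0.740 to 1.52. Whether counting used the strand is not stated, so reads in the 85 bases that both genes cover cannot be assigned with certainty.

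Nid1 (chromosome 13, 13437602 to 13512275), the linker between the networks, had the widest spread. It measured 5.86, 7.91, 6.17 and 8.14 FPKM in exercise libraries and 4.09, 5.21, 6.88 and 3.56 FPKM in anti-PD-L1 libraries. Combination libraries had 4.81, 2.37, 4.88 and 4.14 FPKM, against 19.1, 29.1, 5.72 and 4.83 FPKM in control libraries. Only controls 1 and 2 stood far above the rest, and controls 3 and 4 were within the range of the treated libraries.

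Controls 1 and 2 also stood apart over all genes. A first principal component with 30.1% of the variance put them at -30.8 and -41.4, against -17.0 to 26.3 for the other 14 libraries. FPKM sums were 478672 to 529732 per library, and the depth in reads is unknown. The 15 endothelial markers (14 tested) summed to 93.2 to 115.7 FPKM in exercise, 67.2 to 114.6 in anti-PD-L1 and 55.3 to 91.6 in combination libraries, against 152.2 and 298.9 in controls 1 and 2 and 84.1 and 79.9 in controls 3 and 4. The 11 mural markers summed to 157.5 and 185.6 FPKM in controls 1 and 2, against 87.3 to 137.2 in the other libraries. The 11 macrophage markers summed to 1520 and 1950 FPKM there, against 379.6 to 1267 elsewhere. The 8 skeletal muscle markers reached 332.2 FPKM in control 2, of which Acta1, the actin of skeletal muscle, made 169.9, against 2.83 to 16.4 elsewhere. The 6 adipocyte markers summed to 33.0 and 125.4 FPKM in controls 1 and 2, against 7.71 to 22.3 elsewhere. The 5 Schwann cell markers summed to 39.5 FPKM in control 2, against 2.92 to 4.13 elsewhere. The part of these cell types in the values of Lama4, Col4a1, Col4a2 and Nid1 was not tested.

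**Figure D2:**
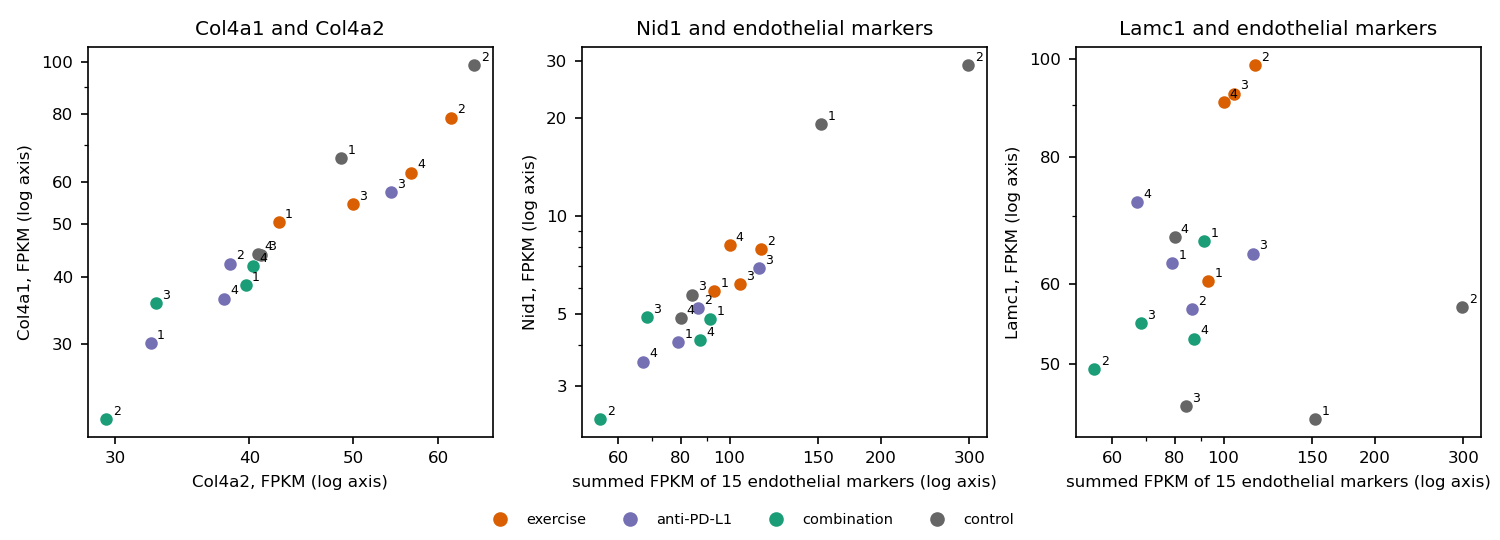
Each library as a numbered point on log axes: Col4a1 against Col4a2 (left), and Nid1 (centre) and Lamc1 (right) against the summed FPKM of 15 endothelial markers. Controls 1 and 2, at 152.2 and 298.9 summed FPKM, are also highest for Nid1, at 19.1 and 29.1 FPKM, but lie at 44.2 and 56.9 FPKM for Lamc1.

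The groups were compared with limma, a linear model with a shared estimate of the spread, fitted to log2(FPKM + 1) of the 11868 genes that reached 1 FPKM in 4 libraries or more. Of the 9 genes, 8 passed this filter, each in all 16 libraries. A call required a p below 0.05 after Benjamini-Hochberg adjustment over the 11868 genes. No comparison called any of the 8 genes. The comparisons with control share the same 4 control libraries.

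Exercise against control was the comparison in which Lamc1 had been noted, and its values are given as a description. Lamc1 averaged 85.5 ± 17.1 FPKM in exercise libraries and 53.3 ± 10.6 FPKM in control libraries (SD, n = 4 each), which gave a log2 fold change of 0.67. The log2 fold change was 0.36 for Lamb2 and 0.15 for Lamb1, which was the 1 gene of the 8 whose groups did not overlap, with exercise higher. Over all tested genes, 4.21% were higher without overlap. The log2 fold change was 0.12 for Col4a2, 0.02 for Col4a1, -0.33 for Lama4, -0.44 for Lama5 and -0.64 for Nid1. The median of the 8 was 0.07, against -0.02 over all tested genes, and 5 of the 8 were above 0, against 46.2% of all.
The negative values of Lama4 and Nid1 depended on controls 1 and 2. With these left out, the log2 fold change was 0.40 for Lama4, 0.35 for Nid1, 0.45 for Col4a1 and 0.34 for Col4a2, while it was 0.60 for Lamc1 and -0.39 for Lama5. Across all tested genes, 0% passed the adjusted threshold in this comparison and 18% had an unadjusted p under 0.05.

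**Figure D3:**
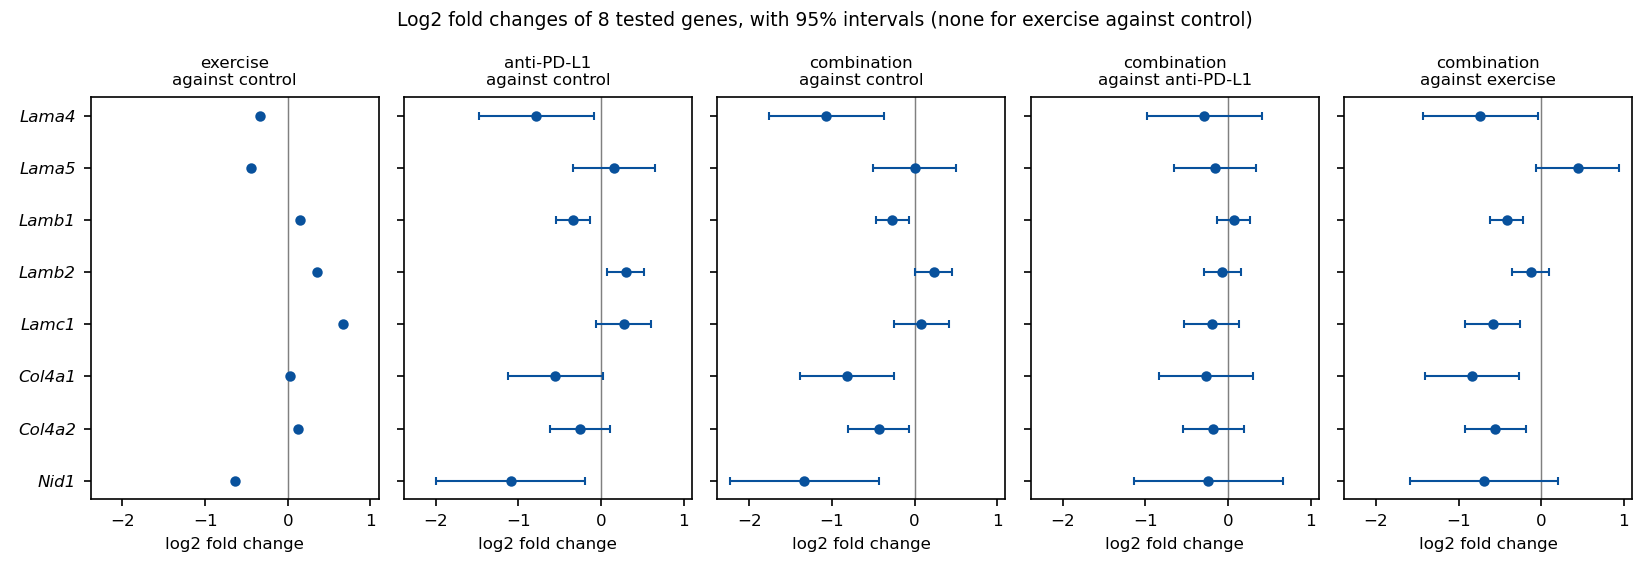
Log2 fold changes of the 8 tested genes on the log2(FPKM + 1) scale, one panel per comparison, with 95% intervals from limma except for exercise against control. Lamc1 was selected on exercise and control libraries. Its intervals in anti-PD-L1 against control, the combination against control and the combination against exercise are therefore no test. The points of the combination against exercise lie below 0 for 7 of 8 genes, and those of the combination against anti-PD-L1 lie between -0.29 and 0.07.

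Anti-PD-L1 against control asked how the antibody alone changed the tumours. Of the 8 genes 5 were lower and 3 higher, where 42.3% of all tested genes were higher, and 0 passed the adjusted threshold, against 0.253% of all tested genes. Leaving the selected Lamc1 aside, 4 of the other 7 genes had an unadjusted p under 0.05 in limma, beside 23.5% of all tested genes. Lamb1 averaged 79.4 ± 9.83 FPKM in anti-PD-L1 libraries and 100 ± 3.30 FPKM in control libraries (SD, n = 4 each). Its log2 fold change was -0.34 ± 0.10 (SE; limma, adjusted p = 0.0819), and it was the 1 gene whose groups did not overlap. Over all tested genes, 7.26% were lower without overlap in this comparison, so 1 of 8 is near that background. Lamb2 averaged 23.6 ± 1.99 FPKM in anti-PD-L1 libraries and 19.1 ± 2.91 FPKM in control libraries, a log2 fold change of 0.30 ± 0.11 (SE; limma, adjusted p = 0.126). The pair of beta chains thus pointed in opposite directions.
Nid1 had a log2 fold change of -1.10 ± 0.42 (SE; limma, adjusted p = 0.147) and Lama4 one of -0.78 ± 0.33 (adjusted p = 0.169). Without controls 1 and 2 these values were -0.11 and -0.05. Col4a1 and Col4a2 had -0.55 and -0.26 with all controls (adjusted p = 0.227 and 0.375), and -0.12 and -0.03 without controls 1 and 2. Lama5 had 0.16 (adjusted p = 0.722). The value for Lamc1, 0.27, rests on the control libraries against which its rise had been noted and is a description. The direction of Lamb1 did not rest on controls 1 and 2, since its value without them was -0.30 (limma, adjusted p = 0.610). Lamb2 had 0.18 without them (limma, adjusted p = 0.675). The median of the 8 was -0.30, against -0.04 over all tested genes.

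In the combination against control, which shares its control libraries with the comparisons before, 5 of the 8 genes were lower and 3 higher, where 41.9% of all tested genes were higher. Col4a1 averaged 34.5 ± 8.81 FPKM in combination libraries and 63.3 ± 25.9 FPKM in control libraries (SD, n = 4 each), which gave a log2 fold change of -0.82 ± 0.27 (SE; limma, adjusted p = 0.572). Col4a2 averaged 35.5 ± 5.34 FPKM in combination libraries and 48.9 ± 11.3 FPKM in control libraries, a log2 fold change of -0.43 ± 0.17 (SE; limma, adjusted p = 0.600). These 2 of 8 genes were lower without overlap, against 2.37% of all tested genes. They share the order of their libraries, as described for the levels, and are not separate evidence.
Nid1 had -1.33 and Lama4 -1.07 (limma, adjusted p = 0.572 each), and neither group pair was free of overlap. Lamb1 had -0.27, Lamb2 0.23, Lamc1 0.08 and Lama5 0.00 on the log2 scale. The value for Lamc1 again rests on the control libraries it was selected on and is a description. Of all tested genes 0% passed the adjusted threshold and 8.2% had an unadjusted p under 0.05 in limma, as did 6 of the 7 genes other than Lamc1. Without controls 1 and 2 the log2 fold changes were -0.34 for Nid1, -0.34 for Lama4, -0.38 for Col4a1 and -0.21 for Col4a2. The median of the 8 was -0.35 with all controls, against -0.03 over all tested genes.

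**Figure D4:**
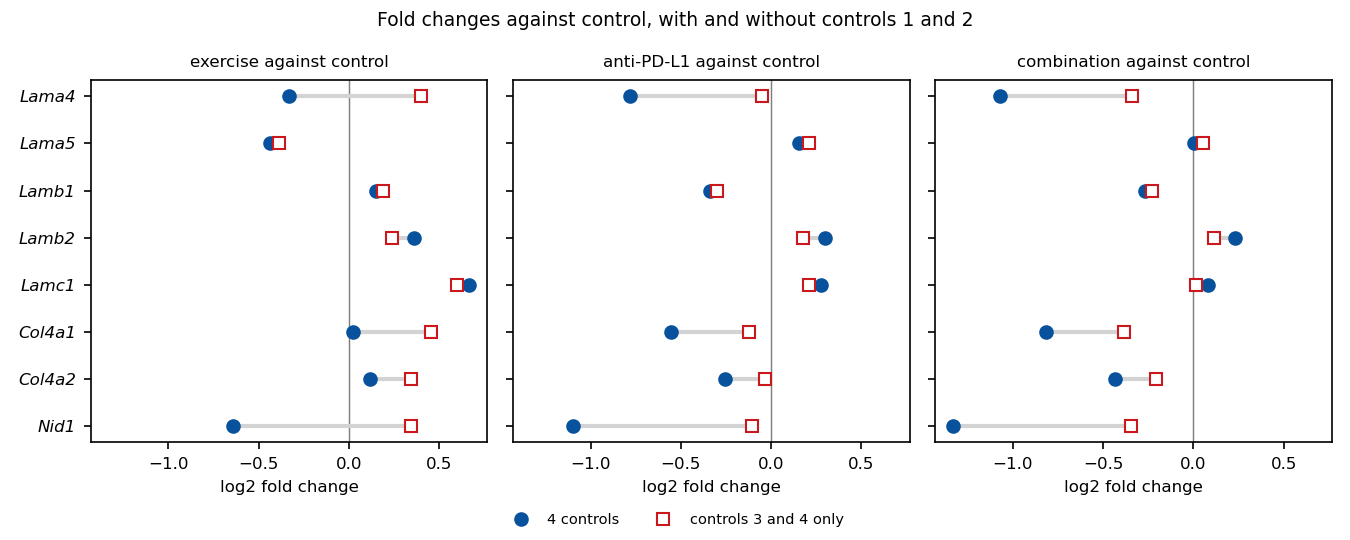
Log2 fold changes against control of the 8 tested genes with all 4 controls (filled circles) and with controls 3 and 4 only (open squares), one panel per comparison. Lama4, Col4a1, Col4a2 and Nid1 shift to the right in every panel, by up to 0.99 for Nid1, whereas Lama5, Lamb1, Lamb2 and Lamc1 shift by no more than 0.12.

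The combination against anti-PD-L1 asked what exercise added to the antibody. Its fold changes use none of the libraries in which Lamc1 had been noted. Its intervals and p-values rest on the spread over all 16 libraries, those included. The higher Lamc1 of exercise libraries was not seen among libraries given antibody. Lamc1 averaged 55.9 ± 7.22 FPKM in combination libraries and 64.0 ± 6.39 FPKM in anti-PD-L1 libraries (SD, n = 4 each), which gave a log2 fold change of -0.20 with a 95% interval of -0.53 to 0.14 (limma, adjusted p = 0.968). The log2 fold change in exercise against control, 0.67, lies above this interval, but it is the value Lamc1 was selected on and carries an error of its own. The remaining values ranged from -0.29 for Lama4 (95% interval -0.98 to 0.41) to 0.07 for Lamb1 (-0.13 to 0.27), with adjusted p between 0.968 and 0.980 in limma. Intervals as wide as that of Nid1, -1.13 to 0.66, leave room for sizeable differences in either direction. The control libraries enter that width. The SD of Nid1 was 11.6 FPKM in control, 1.17 in combination and 1.47 in anti-PD-L1 libraries. The groups overlapped in each of the 8 genes, and 2.24% of all tested genes were free of overlap. Of the 8 genes 7 were lower, where 55.2% of all tested genes were higher. Of all tested genes 0% passed the adjusted threshold, and 3.94% had an unadjusted p under 0.05 in limma, as did 0 of the 8.

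The combination against exercise asked what the antibody added to exercise. Of the 8 genes, 7 were lower in combination tumours and Lama5 higher, where 46.1% of all tested genes were higher. In Lama4, Lamb1, Col4a1, Col4a2 and Nid1 all 4 combination libraries lay below all 4 exercise libraries, which makes 5 of 8, against 3.73% of all tested genes. The adjusted threshold was passed by 0 of the 8 and by 0% of all tested genes. Leaving the selected Lamc1 aside, 4 of the other 7 genes had an unadjusted p under 0.05 in limma, against 13.6% of all tested genes. The 5 genes are correlated across libraries, as shown further on, so they are not independent of each other.
Lamb1 averaged 83.4 ± 10.3 FPKM in combination libraries and 111 ± 5.02 FPKM in exercise libraries (SD, n = 4 each), which gave a log2 fold change of -0.42 ± 0.10 (SE; limma, adjusted p = 0.188). Col4a1 had -0.84 ± 0.27 (SE; limma, adjusted p = 0.224) and Col4a2 -0.55 ± 0.17 (SE; adjusted p = 0.219). Lama4 had -0.74 (adjusted p = 0.336), Nid1 -0.69 (adjusted p = 0.489) and Lama5 0.44 (adjusted p = 0.426). The value for Lamc1, -0.59, rests on the exercise libraries in which the gene had been noted and is a description. No control library enters these log2 fold changes, but the SE and adjusted p rest on the spread over all 16 libraries. Without controls 1 and 2 the adjusted p in limma was 0.203 for Lama4 and 0.215 for Nid1. All 14 tested endothelial markers were also lower in combination than in exercise libraries, 4 of them without overlap, with a median log2 fold change of -0.33, and so were all 10 fibroblast and all 10 mural markers, with medians of -0.58 and -0.28. Lower too were 10 of 11 macrophage markers, with a median of -0.25, and all 4 tested skeletal muscle markers, with -0.44. Of the 4 tested epithelial and keratinocyte markers 3 were lower, with a median of -0.065. None of these markers passed the adjusted threshold, and their part in the values of the 5 genes was not tested.

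The interaction asked whether exercise and antibody together differed from the sum of each alone, and it contains the comparison in which Lamc1 had been noted. For Lamc1 it was -0.86 on the log2 scale, given as a description. Lamb2 had -0.42, Lama5 0.28, Nid1 0.41, Lama4 0.04, Col4a1 -0.29, Col4a2 -0.30 and Lamb1 -0.08. Without controls 1 and 2 the values of Nid1 and Lama4 changed sign, to -0.58 and -0.69. Those of Col4a1 and Col4a2 were then -0.72 and -0.52, and those of Lamb2, Lama5 and Lamb1 were -0.31, 0.23 and -0.12. No gene of the 8 passed the adjusted threshold, and 0% of all tested genes did, while 13.1% had an unadjusted p under 0.05 in limma, as had 1 of the 7 genes other than Lamc1, which was Lamb2.
Exercise library 1 bears on Lamc1 and on the fit of all genes. When it was left out, 611 of all genes passed the adjusted threshold in exercise against control, in place of 0. In the combination against exercise 184 passed and in the interaction 223, again in place of 0. Without exercise 1 the log2 fold change of Lamc1 was 0.82 in exercise against control, -0.75 in the combination against exercise and -1.02 in the interaction.

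The genes were then compared across libraries. Among the 8 tested genes there are 28 pairs, and for 11 of them, all positive, Pearson's r of log2(FPKM + 1) over the 16 libraries had an adjusted permutation p below 0.05 (100000 permutations, two-sided). Lama4, Col4a1, Col4a2 and Nid1 formed a block in which every pair was among the 11. Col4a1 and Col4a2 had r = 0.96 (permutation p = 1e-05, the smallest they can give, adjusted p = 5.6e-05) and Spearman's rho = 0.97 (permutation p = 1e-05). Without combination 2 and control 2, the libraries farthest from the median of Col4a1, r was 0.95, and with the group means removed it was 0.94. Lama4 and Nid1 had r = 0.97 and rho = 0.91 (permutation p = 1e-05 each, adjusted p = 5.6e-05), and r was 0.94 without controls 1 and 2, the libraries farthest from the median of Lama4, and 0.96 with the group means removed.

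Over all 16 libraries Lamc1 was not part of that block. With Nid1 it had r = -0.05 and rho = 0.12 (permutation p = 0.853 and 0.664, adjusted p = 0.885 and 0.814), and with Col4a1 r = 0.31 and rho = 0.26 (permutation p = 0.235 and 0.322, adjusted p = 0.388 and 0.563). When controls 1 and 2 were left out, a choice added after the data had been seen, Lamc1 was correlated with most of the block over the 14 libraries. Its r was then 0.69 with Lama4, 0.67 with Col4a1 and 0.72 with Col4a2 (permutation p = 0.00588, 0.00824 and 0.00355, adjusted p = 0.0137, 0.0178 and 0.0110), and 0.59 with Nid1 (permutation p = 0.0278, adjusted p = 0.0519). The separation of Lamc1 was thus not seen for most of the block without those 2 libraries. These 14 libraries include the exercise libraries on which Lamc1 was selected. Without exercise 2 and 3, the libraries farthest from the median of Lamc1, its r was 0.10 with Col4a1, 0.25 with Col4a2 and -0.14 with Nid1. With the group means removed it was 0.10 with Lama4, 0.23 with Col4a1, 0.37 with Col4a2 and -0.002 with Nid1. With Lamb2, Lamc1 had r = 0.75 and rho = 0.79 (permutation p = 0.00122 and 0.00047, adjusted p = 0.00488 and 0.00165). This r was 0.72 without controls 1 and 2, the libraries farthest from the median of Lamb2, and at 0.67 with the group means removed. Lamb1 was joined to the block of Lama4, Col4a1, Col4a2 and Nid1 by r between 0.56 and 0.71, and the values with the group means removed, between 0.25 and 0.45, did not pass the adjusted threshold. Lama5 had an r below 0 with each of the other 7 genes, and none of those pairs passed. All of these values come from the same 16 libraries, and their common scale and depth are shared by the genes.

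**Figure D5:**
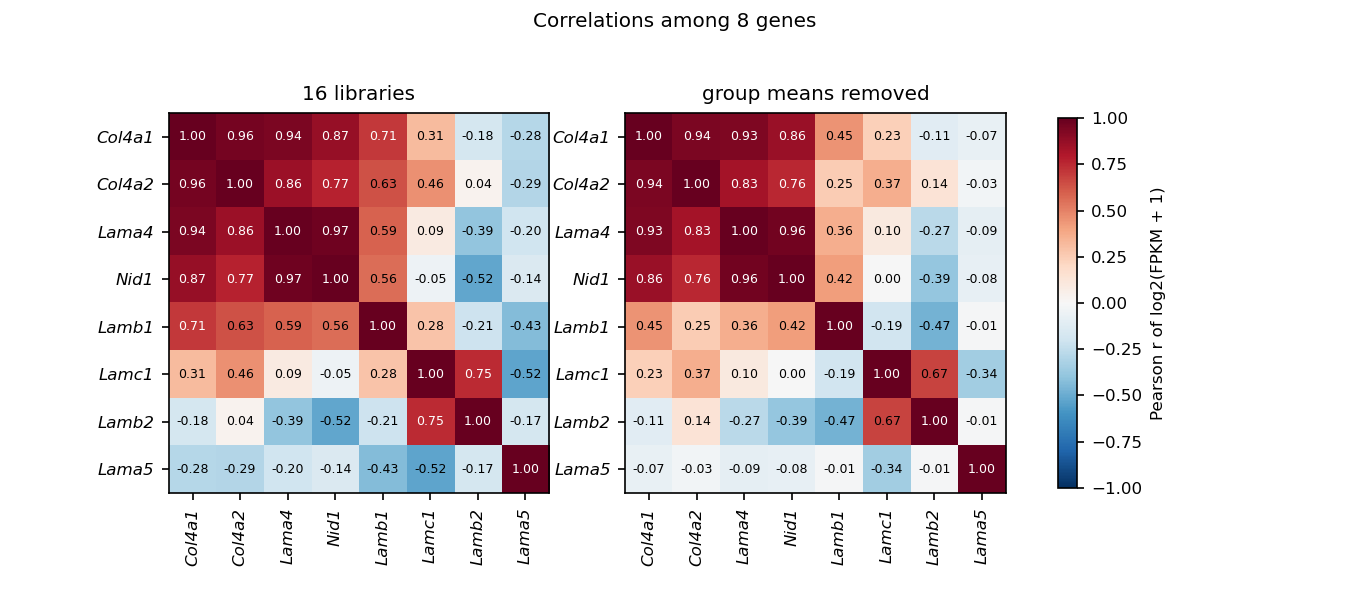
Pearson's r between the 8 tested genes over 16 libraries (left) and after removal of the group means (right), on log2(FPKM + 1). The block of Col4a1, Col4a2, Lama4 and Nid1 has r between 0.77 and 0.97 on the left and between 0.76 and 0.96 on the right, and Lamc1 and Lamb2 have 0.75 and 0.67.

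Among the tested genes outside the 9, those most like Col4a1 by Pearson's r over the 16 libraries were Nid2 at 0.945, Sema3f at 0.938, Flt1 at 0.927, Mmrn2 at 0.918 and Mmp15 at 0.905, given as a description. Nid2 encodes the second nidogen, Flt1 a receptor for vascular endothelial growth factor and Mmrn2 a matrix protein of endothelium. Flt1 averaged 4.30 ± 1.31 FPKM in combination libraries and 8.54 ± 1.59 FPKM in exercise libraries (SD, n = 4 each). Those most like Lamc1 were Dirc2 at 0.929, Stk36 at 0.927, Trak1 at 0.925, Ssh1 at 0.917 and Ncstn, a subunit of gamma-secretase, at 0.916. No gene stood on both lists.

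The chains that were not among the 9 were mostly silent. Of 9 further laminin and collagen IV chains, 7 were below the filter, among them Lama1, Lama2, Lamb3 and Lamc3. Col4a5, a collagen IV chain of kidney and skin membranes, measured 1.94 to 3.87 FPKM in exercise libraries and 0.90 to 2.57 FPKM in control libraries. It did not pass the adjusted threshold in any comparison in limma, the smallest adjusted p being 0.174 in anti-PD-L1 against control.

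Of 14 other basement membrane proteins 12 were tested, and 0 passed the adjusted threshold in any comparison. Hspg2, which encodes perlecan, measured 99.4, 158, 135 and 133 FPKM in exercise libraries and 100.3, 104, 136 and 135 FPKM in anti-PD-L1 libraries. Combination libraries had 112, 107, 98.2 and 109 FPKM, against 79.1, 86.3, 92.2 and 113 FPKM in control libraries. Controls 1, 2 and 3 were the lowest of the 16 libraries and exercise 2 the highest. In anti-PD-L1 against control 9 of the 12 were lower, where 42.3% of all tested genes were higher, and 2 were lower without overlap, against 7.26% of all. Their median log2 fold change was -0.29, against -0.04 over all tested genes. Without controls 1 and 2 the median of the 12 was -0.07.
Col18a1, the source of endostatin, measured 30.1, 45.0, 43.6 and 31.7 FPKM in anti-PD-L1 libraries, against 71.9, 95.3, 83.5 and 71.4 FPKM in control libraries. Its log2 fold change was -1.09 ± 0.26 (SE; limma, adjusted p = 0.0634). Smoc2, a small calcium-binding matrix protein, had -1.11 ± 0.27 (SE; limma, adjusted p = 0.0679), at levels of 0.36 to 0.50 FPKM in anti-PD-L1 libraries and 0.99 to 4.29 FPKM in control libraries. Both were without overlap and both missed the threshold. Smoc2 measured 2.84 and 4.29 FPKM in controls 1 and 2, but 0.99 and 1.09 FPKM in controls 3 and 4. In combination libraries, also given antibody, Col18a1 measured 35.8, 38.9, 90.6 and 75.3 FPKM.
Nid2, the second nidogen, measured 5.70, 5.91, 5.0 and 5.24 FPKM in exercise libraries and 2.82, 3.31, 4.68 and 2.98 FPKM in anti-PD-L1 libraries. Combination libraries had 3.8, 2.12, 2.9 and 3.73 FPKM, against 7.26, 10.4, 3.55 and 3.71 FPKM in control libraries. As with Nid1, controls 1 and 2 were the highest of the 16 libraries and every exercise library lay above every combination library, with a log2 fold change of -0.66 in the combination against exercise (limma, adjusted p = 0.272). Nid1 exceeded Nid2 in every library, by a ratio of 1.03 to 2.80.

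Enzymes that fold and crosslink collagen IV were also listed. Of 20 such genes 18 were tested, and 0 passed the adjusted threshold in any comparison in limma. Pxdn, the peroxidase that crosslinks collagen IV, averaged 40.2 ± 10.4 FPKM in combination libraries and 57.0 ± 8.31 FPKM in exercise libraries (SD, n = 4 each), which gave a log2 fold change of -0.52 ± 0.14 (SE; limma, adjusted p = 0.207). Plod1, a lysyl hydroxylase, averaged 39.7 ± 7.21 FPKM in combination libraries and 53.4 ± 3.83 FPKM in exercise libraries, a log2 fold change of -0.44 (adjusted p = 0.213). P4ha1, a prolyl hydroxylase subunit, averaged 137 ± 38.7 FPKM in anti-PD-L1 libraries and 79.6 ± 18.8 FPKM in control libraries, a log2 fold change of 0.76 (limma, adjusted p = 0.0949). The medians over the 18 genes lay between -0.11 and 0.08 in the 5 comparisons of groups.

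Of 13 receptors 10 were tested and of 12 genes of matrix breakdown 11, again with 0 past the adjusted threshold in any comparison. Dag1, which encodes dystroglycan, averaged 34.8 ± 3.68 FPKM in combination libraries and 45.8 ± 5.39 FPKM in exercise libraries (SD, n = 4 each), which gave a log2 fold change of -0.39 ± 0.12 (SE; limma, adjusted p = 0.219). Itga3, an integrin chain that binds laminin, had -0.58 in anti-PD-L1 against control (limma, adjusted p = 0.140). Mmp2, a gelatinase that cleaves collagen IV, averaged 692 ± 183 FPKM in anti-PD-L1 libraries and 422 ± 128 FPKM in control libraries, a log2 fold change of 0.72 ± 0.22 (SE; limma, adjusted p = 0.0965). Its level exceeded that of either collagen IV chain in every group. Mmp3, stromelysin 1, had -2.41 ± 0.79 in the same comparison (SE; limma, adjusted p = 0.112).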

How the data were processed

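Total RNA of 16 MC38 tumour libraries was extracted with Trizol, per the labels. The authors deposited FPKM with 2 decimals. The submitters' processing notes name HISAT, Bowtie2 and GRCm38.p6 without saying what each was used for, and the program that computed FPKM is not given in the sources used here. Low values fell on whole multiples of their smallest step (within 0.15) in 45.2% of 14583 cases, so reads were not recovered and depth is unknown. A pseudocount of 1 was used, and fold changes on the log2(FPKM + 1) scale understate the change of low genes. The limma model (limma 3.58.1, R 4.3.3, trend and robust settings) held the group as its only term and was tested on simulated data. The genes, lists and tests were chosen with earlier results of these data known. Named in the lists were up to 4 genes with the smallest p per comparison, and others after their values were seen. The genes named as most alike were the 5 with the highest r to Lamc1 and to Col4a1. Alternatives comprised normalization, filters, pseudocount, weights, replicate block and libraries left out. Coordinates and promoter windows are from RefSeq for GRCm38.p6. Figures were drawn with matplotlib 3.10.9. Some genes are not reported here.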

Additional observations from a re-analysis of the deposited data

How the results depend on the processing

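None of the 8 genes passed the adjusted threshold in any of the 6 contrasts with all libraries at equal weight, nor under other normalizations, filters, pseudocounts, a fit without trend and robust settings, fits of only the groups compared, or without controls 1 and 2. With library weights 2 genes passed in exercise against control (Lamb2 and Lamc1, higher) and 2 in the combination against exercise (Lamb1 and Lamc1, lower), where 2274 and 222 of all genes passed, against 0 without weights. Exercise against control is given as a description, so counts in that contrast, with Lamb2 among them, are no test. Lamc1 was selected on the exercise libraries, which also enter the combination against exercise and the interaction, so its part in those counts is no test either. Leaving out each library in turn gave 0 to 2 genes in anti-PD-L1 against control (2 without control 4, Lamb2 higher and Nid1 lower, where 768 of all genes passed in place of 30), 0 to 1 in exercise against control, in the combination against exercise and in the interaction (the selected Lamc1 in each, without exercise 1, and 0 of the genes other than it, where 611, 184 and 223 of all genes passed in place of 0), and 0 in the other contrasts. Of 1234 alternative values of the genes, 25 changed sign and 9 passed the threshold. Of the 11 correlated pairs, 7 passed with the group means removed. Replicate numbers did not pair the libraries: the 24 same-numbered pairs had deviations correlated at -0.62 to 0.34, 6 of them over 0.1, and 1 library matched its own number best. With the replicate block 0 of the 8 genes passed in every contrast, and in anti-PD-L1 against control 15 of all genes passed in place of 30. That count of all genes ranged from 6 (without control 2 or anti-PD-L1 2) to 768 as single libraries were left out, with 317 without exercise 1, and was 4 without controls 1 and 2, 8 without a filter, 77 with libraries centred on their medians, 117 with quantile normalization and 835 with weights. Without a known depth no counting error can be given, which bears most on Lama3.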
